A study of Mus musculus with 2 samples.

Results

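4631405K08Rik is the mouse gene that gives rise to the long noncoding host transcript of miR-205, a microRNA of stratified epithelium. It is picked out by its symbol, by a rule that uses no measured value, although the gene was chosen with earlier results of these data known. It is 1 of the 31053 features counted by single-cell RNA-seq in dissociated back skin, from 1 control animal and 1 animal in which miR-205 could be induced. To ask where in the skin this transcript is found and whether its level differs between the libraries, its unique molecular identifiers (UMIs, which tag single captured RNA molecules) were summed over skin cell clusters made without it. Both mice were gender matched, were labelled C57BL/6, carried a K14-H2BGFP reporter allele and were taken at postnatal day 53. The inducible mouse carries a pTRE2-miR-205 transgene, made in FVB mice and switched on by a Krt14-driven rtTA in the presence of doxycycline, so induction is aimed at Krt14-expressing cells. Doxycycline was fed in the chow for 4 days, beginning on postnatal day 49. According to the extraction protocol both mice were fed it, but the treatment field of the control's label reads untreated. Cells were sorted on surface proteins and the nuclear green reporter to epidermal, hair follicle and dermal cells at 3:5:2, which shapes but does not fix the broad makeup of each library. Both libraries were run on the same chip with about 5000 cells targeted.

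There was 1 library, and so 1 mouse, per group. No comparison below has a replicate check, no test of the induction was possible, and each interval covers counting error only. Cells of a cluster share their mouse, so they are not replicates, and a difference between the libraries cannot be told apart from a difference between these mice.

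MicroRNA genes are transcribed as longer primary transcripts. The nuclear enzyme Drosha cuts out a hairpin, Dicer trims it, and 1 arm is loaded into an Argonaute protein, which then binds messenger RNAs through the seed of the microRNA. Many microRNAs, miR-205 among them, lie inside a noncoding host transcript that is spliced and polyadenylated, and this host RNA is what a poly(A)-primed library can capture. In skin, miR-205 is known as an abundant microRNA of epidermis and hair follicle that lowers regulators of PI3K signalling, and the epithelial master regulator p63, encoded by Trp63, is known to drive its gene. The counts below are of the host RNA, and are a measure neither of mature miR-205 nor of transgene output. The sources used here do not give how much host sequence the transgene carries, and the Mir205 gene itself had no matching feature.

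RefSeq lists the host gene as Mir205hg with 4631405K08Rik as a synonym, on the minus strand of chromosome 1 at 193506460 to 193510210 in GRCm38.p6, a span of 3751 bases. The hairpin lies 2680 bases downstream of the start site and 1003 bases before the end of the gene. The sequences below, from RefSeq on that build, are shown because the hairpin is the part of the host RNA that is cut out, so the product that acts on other genes is not what was counted. Capitals mark the mature arms in the hairpin and the seed (bases 2 to 8) in each mature sequence.
Mir205 hairpin, chr1:193507463-193507530, 68 bases: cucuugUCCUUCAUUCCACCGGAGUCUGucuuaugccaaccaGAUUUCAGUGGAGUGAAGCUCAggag
mmu-miR-205-5p, chr1:193507503-193507524, 22 bases: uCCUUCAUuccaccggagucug
mmu-miR-205-3p, chr1:193507467-193507488, 22 bases: gAUUUCAGuggagugaagcuca
Of the 1679 mature mouse microRNAs in the RefSeq table, 0 others shared either seed.

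The libraries held 4545 control and 4264 induced barcodes with 55465594 and 49733560 UMIs. The study's filter left 3936 and 3628 cells (86.6% and 85.1%) with a median of 12198.5 and 11752.5 UMIs. The libraries shared 11 barcodes. Clustering gave 25 clusters, of which 17 met a marker rule and are called by the class with the suffix "-like", and 8 stayed unnamed and are called by their leading genes. In 17 clusters Vim, a mesenchymal filament gene, stayed at or below 114 CPM, the UMIs of a gene per 1e6 UMIs of the population, and these are called epithelial. In the other 8, which were dermal, immune, melanocyte-like or endothelial-like, Vim was at or above 1635 CPM.

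4631405K08Rik was an epithelial transcript in both libraries. It gave 5187 UMIs in the 3503 control cells of the epithelial clusters and 15 UMIs in the 433 control cells outside them. The corresponding induced counts were 4709 UMIs in 2994 epithelial cells and 80 UMIs in 634 other cells. Scaled to all UMIs of the population, the epithelial level was 110.1 CPM in the control (95% interval 107 to 113) and 117 CPM in the induced library (113 to 120). Nearly all of the transcript was therefore in keratinocyte-type cells of epidermis, follicle and gland, at 1.48 and 1.57 UMIs per epithelial cell.

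Within the epithelium the level ranged 66.0-fold across clusters in the control and 46.9-fold in the induced library. The highest level was in cluster 3, inner bulge-like cells marked by Fgf18 and Krt75, which form the innermost layer of the resting follicle's bulge. There 4631405K08Rik reached 578 CPM in the control (537 to 622, 738 UMIs in 169 cells) and 378 CPM in the induced library (357 to 401, 1113 UMIs in 381 cells). Next came cluster 13, which was led by Akr1c18, Plin2 and Ifnk and had 6 sebaceous gland markers raised but failed the naming rule, at 472 CPM in the control and 302 CPM in the induced library. Both clusters stood first and second in both libraries.

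Clusters of hair follicle stem cell and upper bulge type came next in the control order. The lowest of them there, cluster 5, was not above its next neighbour, cluster 16, beyond counting error. In the induced library cluster 2 stood at position 9, below clusters 21, 10 and 0. Clusters with markers of hair follicle stem cells are called HF-SC-like. In the smaller of these, cluster 19, led by Shisa2 and Krt24, the level was 381 CPM in 30 control cells and 181 CPM in 59 induced cells. In cluster 12, an upper bulge-like cluster led by Pthlh and Bdnf, it was 284 CPM and 203 CPM. The main HF-SC-like cluster, cluster 2 with Krt24 and Sfrp1, had 180.5 CPM (590 UMIs in 325 cells) in the control and 111 CPM (335 UMIs in 291 cells) in the induced library. The other upper bulge-like cluster, cluster 5 with Serpinb11 and Mgp, had 124 CPM and 191 CPM. The hair germ-like cluster 16, the progenitors at the follicle base that start a new hair, had 122 CPM in 43 control cells and 105 CPM in 96 induced cells. It lay below cluster 2 beyond counting error in the control (log2 ratio of cluster 2 over cluster 16 of 0.56, interval 0.13 to 1.02) but not in the induced library (0.08, interval -0.23 to 0.41).

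Several clusters shared a middle level near the epithelial mean. Cluster 10, led by Tagln, Acta2 and Slc7a8, had 119 CPM in the control and 117 CPM in the induced library. Cluster 0, led by Ccl1, Cxcl12 and Ccl2, had 114 and 116 CPM. The sebaceous gland-like cluster 21, with Scd1 and Cidea, had 111 and 161 CPM in 21 and 39 cells. These cells make lipid-rich sebum, and they had less of the transcript than cluster 13 in both libraries although both clusters had sebaceous markers raised. Cycling-like cells (cluster 15) had 93.2 and 76.3 CPM, and cluster 14, led by Sostdc1, Socs3 and Klf2, had 87.4 and 57.2 CPM.

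The interfollicular epidermis and the upper follicle held the least. Upper follicle-like cells (cluster 4, with Krt79 and Defb6) had 59.5 CPM in the control and 54.6 CPM in the induced library, and cluster 11, led by Ndufa4l2 and Cfap57, had 48.0 and 32.8 CPM. The cluster like basal interfollicular epidermis (IFE basal-like), cluster 1 with Igfbp3 and Epgn, had 27.2 CPM (24.0 to 30.8) in the control and 55.5 CPM (49.7 to 61.8) in the induced library. The IFE suprabasal-like cluster 8, with Krt1 and Krt10, had 13.6 and 17.4 CPM. The lowest level was in cluster 6, whose leading genes Lor, Cst6 and Cnfn belong to cornifying cells, at 8.77 CPM (33 UMIs in 230 cells) and 8.06 CPM (27 UMIs in 203 cells).

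**Figure D1:**
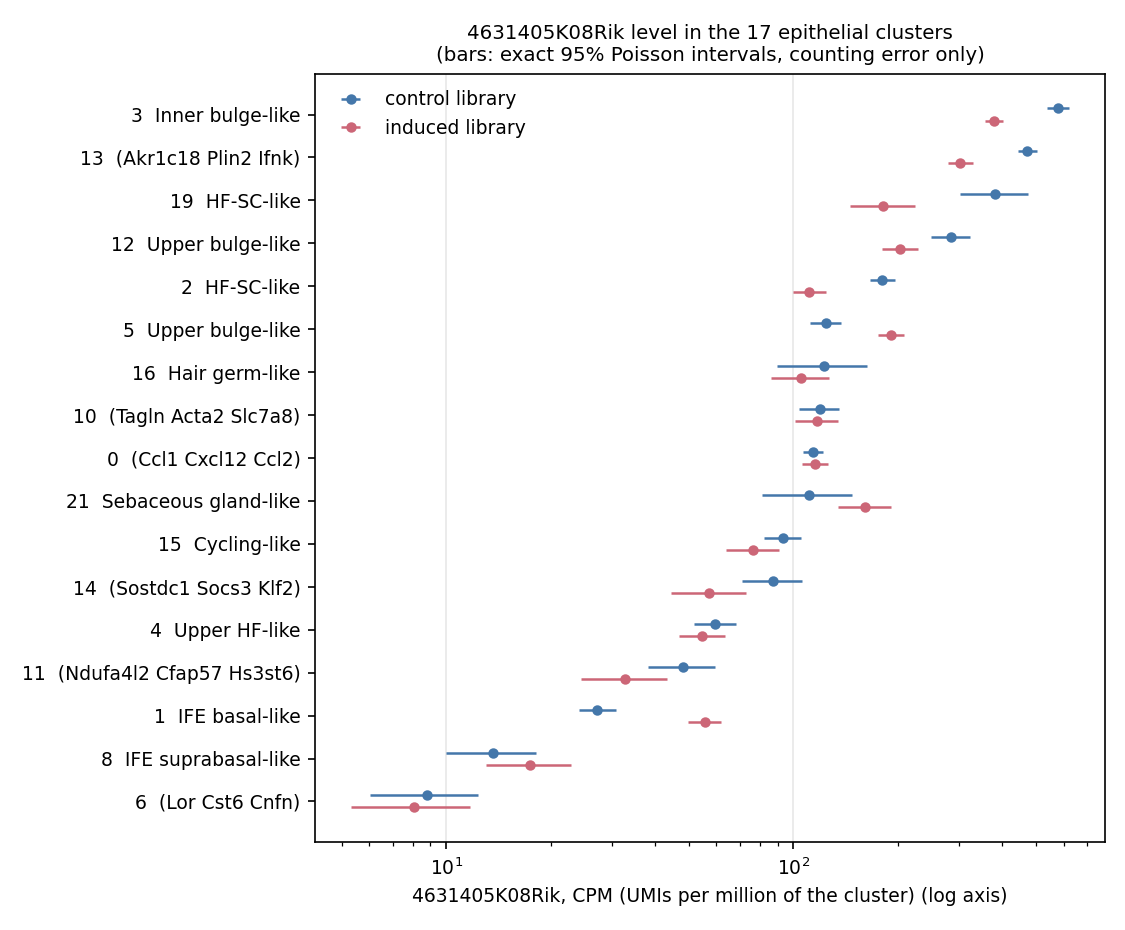
Level of 4631405K08Rik in CPM on a log axis for each of the 17 epithelial clusters, ordered by the control library, with points for the control and induced libraries and bars for exact 95% Poisson intervals (IFE is interfollicular epidermis and HF is hair follicle). Inner bulge-like cells are highest (578 and 378 CPM) and the cluster led by Lor, Cst6 and Cnfn is lowest (8.77 and 8.06 CPM) in both libraries.

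The order was similar in both libraries (Spearman's rho of 0.93 across the 17 clusters, a description, since the points share their libraries and clustering). Of the 16 steps between neighbours in the control order, 3 were beyond counting error in both libraries. These were cluster 3 above cluster 13, cluster 12 above cluster 2, and basal cluster 1 above suprabasal cluster 8. The long middle of the order, from cluster 5 down to cluster 14 in the control, held no step whose counting interval left out equality there. The 3 clusters highest in the control also had many mitochondrial UMIs, with medians of 7.25% in cluster 3, 6.30% in cluster 13 and 7.24% in cluster 19 against 4.97% over the epithelial clusters. Clusters with lower host levels had many too, with 7.98% in cluster 21 (111 CPM) and 6.22% in cluster 14 (87.4 CPM). Only 12 control and 31 induced cells of cluster 3 had under 5% mitochondrial UMIs, and in these the level was 505 CPM in the control, still the highest, and 286 CPM in the induced library, where cluster 3 stood at position 2. The part of RNA quality in the order was not tested.

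The fall from basal to differentiated epidermis was also described along keratin bins. Cluster borders still chose the cells, and Krt1 and Krt10 were among the markers that named cluster 8. The bins are therefore no independent check of the clusters. Cells of the 2 interfollicular clusters were binned by the share of Krt1 and Krt10 UMIs, keratins of differentiating cells, among these plus Krt5 and Krt14 UMIs, keratins of basal cells. In the lowest of 5 bins the host transcript had 26.4 CPM in 642 control cells (23.4 to 29.6) and 52.3 CPM in 394 induced cells (47.0 to 58.0). In the highest bin it had 9.28 CPM in 51 control cells (4.24 to 17.6) and 7.07 CPM in 57 induced cells (3.23 to 13.4). Trp63 fell over the same bins, from 254 to 136 CPM in the control and from 270.3 to 123 CPM in the induced library. The 3 bins between held 15 to 28 cells and 3 to 10 host UMIs each, too few to order.

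Because cells differ in depth, every cell was also thinned to 5000 UMIs. Shallower cells, 304 in the control and 328 in the induced library, were not used for this. After thinning, 27.0% of control and 29.8% of induced epithelial cells had a 4631405K08Rik UMI, against 41.3% and 43.7% before. In inner bulge-like cells the thinned share was 81.5% in the control (74.3 to 87.3%) and 60.2% in the induced library (54.8 to 65.4%). In cluster 13 it was 68.3% and 50%, and in cluster 6 it was 5.14% and 3.65%. The shares thus followed the levels from the inner bulge to the cornifying cells.

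**Figure D2:**
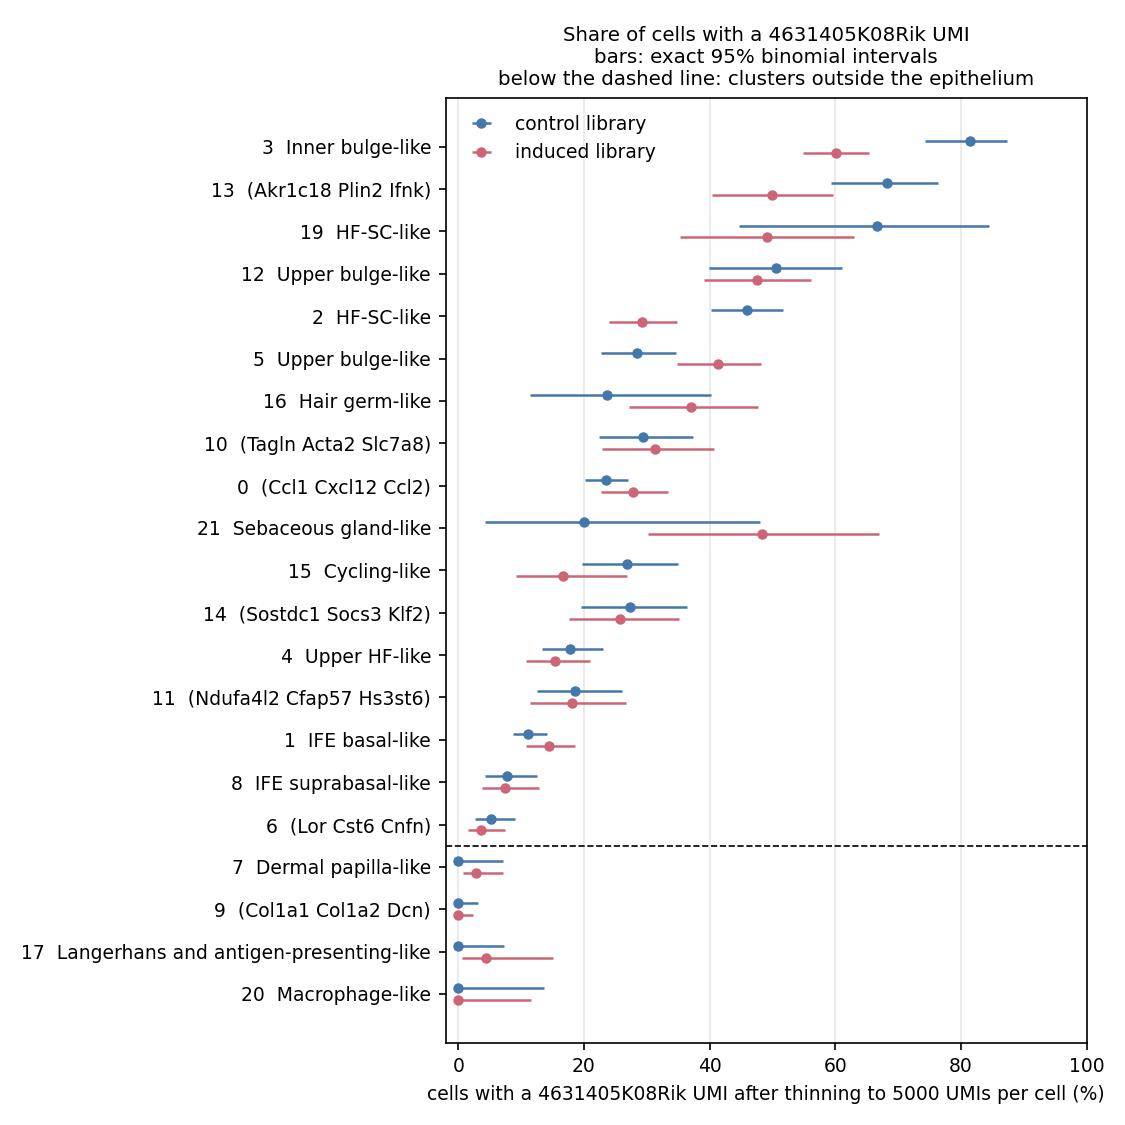
Percent of cells with at least 1 4631405K08Rik UMI after thinning each cell to 5000 UMIs, for the 17 epithelial clusters and, under the dashed line, the clusters outside the epithelium with at least 20 thinned cells in each library. Bars are exact 95% binomial intervals, and shares run from 81.5% in control inner bulge-like cells to 0% in several dermal and immune clusters.

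The transcript was unevenly spread among cells of the same cluster. If every inner bulge-like cell had carried the same mean number of thinned UMIs, 5.50% of control and 15.97% of induced cells would have had none by counting alone, whereas 18.5% and 39.8% had none. At the other end, 33.8% of control and 17.4% of induced inner bulge-like cells had 4 or more thinned UMIs. The variance of thinned UMIs per cell was 0.857 to 4.21 times the mean over the epithelial clusters and libraries, and was above the mean in all but the 15 thinned control cells of cluster 21. Before thinning, 126 control and 105 induced epithelial cells had 10 or more UMIs of the host transcript. These were 3.60% and 3.51% of epithelial cells and held 36.1% and 31.7% of its epithelial UMIs. Cluster 13 was the extreme, with 41 of 130 control cells and 21 of 111 induced cells at 10 or more, which held 72.3% and 59.0% of the cluster's host UMIs. Of all those with 10 or more, 2 control and 4 induced cells were among the highest doublet scores. Over all epithelial cells, 104 of 3503 in the control and 67 of 2994 in the induced library were among them.

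**Figure D3:**
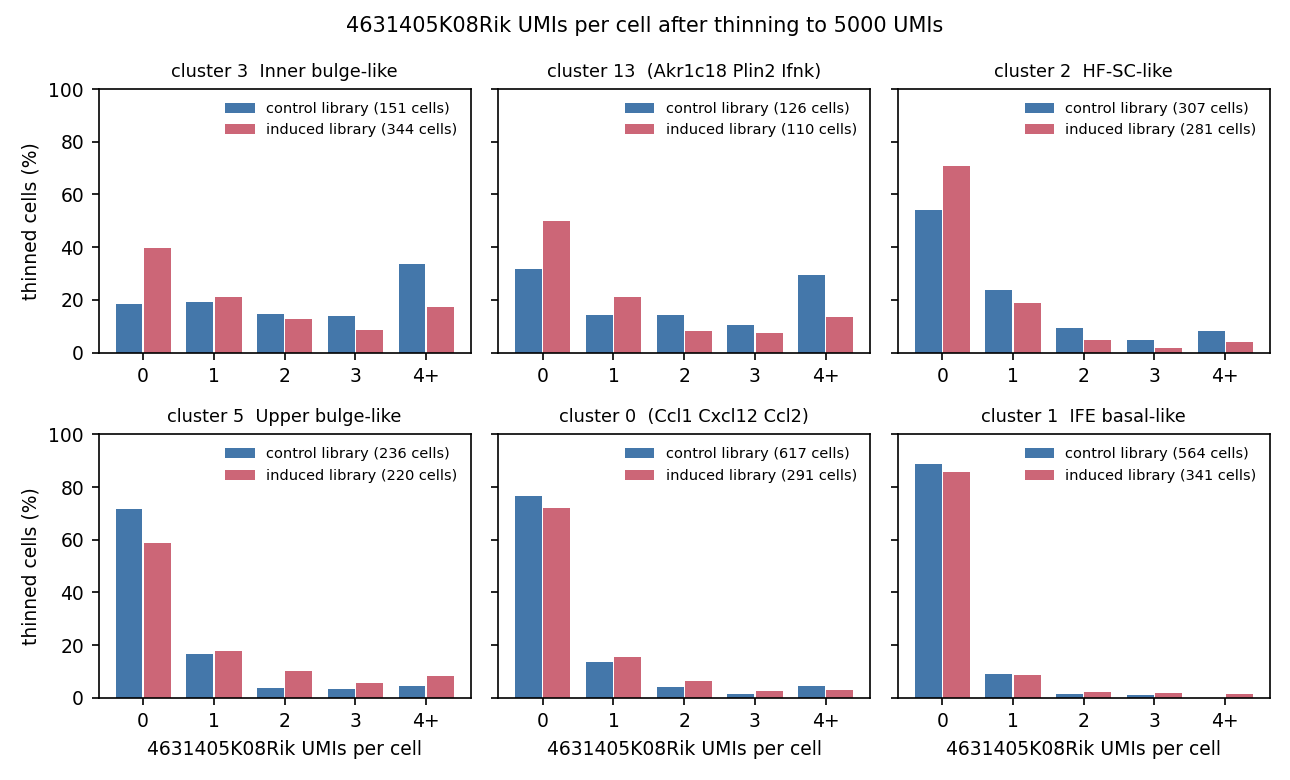
Percent of thinned cells with 0, 1, 2, 3 or at least 4 UMIs of 4631405K08Rik in 6 epithelial clusters, with bars for the control and induced libraries. In clusters 3, 13 and 2 the bar at 0 UMIs is taller in the induced library (39.8% against 18.5% in cluster 3), and in cluster 5 it is shorter.

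In most clusters outside the epithelium the transcript was at or near 0. Cells set by marker UMIs in place of clusters held more in some of these classes. Dermal papilla cells so set had 36 UMIs in 4 of 103 control cells and 22 in 4 of 180 induced cells. Endothelial cells had 14 UMIs in 5 of 20 and 8 in 3 of 23, and Langerhans-type cells 12 in 5 of 65 and 79 in 16 of 60. Fibroblasts had 3 and 1 UMIs and T cells 5 and 0. How many of these cells lay in epithelial clusters was not counted. Dermal papilla-like cells (cluster 7) had 0 UMIs in 141 control cells. Of these, 50 were deep enough for thinning, and 3 counts among them would be a share of 6.00%, while the exact upper bound drawn in the plot of shares is 7.11%. The T cell-like cluster had 0 UMIs in 29 control and 28 induced cells, of which 10 and 16 could be thinned (3 counts would be 30% and 18.75%). The endothelial-like cluster had 0 UMIs in 7 and 14 cells, of which 5 and 11 could be thinned (60.0% and 27.3%). In the induced library 28 UMIs fell in 222 dermal papilla-like cells and 44 UMIs in 46 Langerhans-like cells, against 0 and 1 in the control. These UMIs came from few cells. Of all cells outside the epithelium, 1 control cell (5 UMIs) and 8 induced cells (75 UMIs) had 3 or more host UMIs, and all 9 were among the highest doublet scores. Over all kept cells, 133 of 3936 in the control and 115 of 3628 in the induced library had such scores. In these 9 cells 49 epithelial markers summed to between 13598.5 and 34964 CPM, against medians of 3231 and 4230 CPM in the control and induced cells outside the epithelium. Without these 9 cells, 10 UMIs remained in 432 control cells and 5 UMIs in 626 induced cells outside the epithelium.

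What remained was set beside the basal keratins Krt14 and Krt5. In the cells outside the epithelium with under 3 host UMIs, a limit that itself uses the host count, there were 2.18 host UMIs per 1000 keratin UMIs in the control (1.04 to 4.01) and 1.63 in the induced library (0.530 to 3.81). Over the epithelial clusters the ratio was higher, at 7.92 and 9.73. Among epithelial clusters it was 1.07 and 1.64 in IFE suprabasal-like cluster 8 and 102 and 70.3 in inner bulge-like cells. Whether the few UMIs outside the epithelium came from free RNA was not tested.

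Over the whole skin the level of the host transcript differed little between the libraries. All kept cells gave 102.9 CPM in the control (5202 UMIs) and 106 CPM in the induced library (4789 UMIs), a log2 ratio of 0.04 (interval -0.02 to 0.09). Over the epithelial clusters the log2 ratio was 0.08 (0.03 to 0.14), and the median of all 13242 genes tested there was 0.05. Each of these sums mixes clusters in different proportions. With the epithelial clusters weighted as in the control, the induced level was 98.2 CPM, a log2 ratio of -0.16 against the control's 110.1 CPM, so the direction over the epithelium turned with the makeup.

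**Figure D4:**
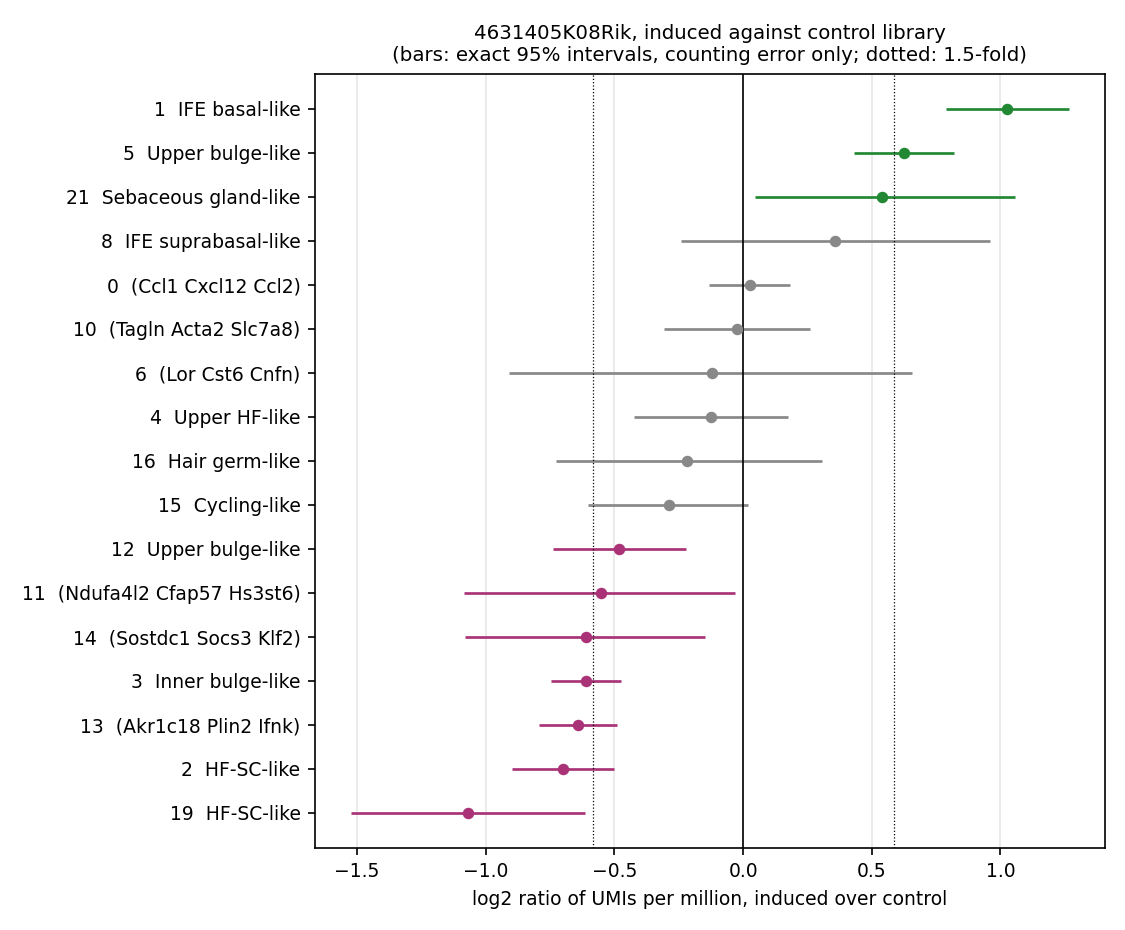
Log2 ratio of 4631405K08Rik, induced over control, from CPM, for the 17 epithelial clusters, with exact 95% intervals for counting error and dotted lines at 1.5-fold. Green clusters have intervals above 0 (clusters 1, 5 and 21), purple clusters have intervals below 0, and grey clusters have intervals that hold 0.

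Cluster by cluster, the ratio went in both directions. Counting intervals lay above 0 in 3 of the 17 epithelial clusters, below 0 in 7 and across 0 in 7. Past 1.5-fold, the call used here, it was higher in 2 clusters and lower in 5. In those 7 clusters 5.98% to 11.0% of all tested genes, those with at least 20 UMIs, were called in the same direction. This is the background beside which each call below stands, and it depends on the limit on counts. Among genes with at least 100 UMIs it was 1.92% to 6.35%, and with no limit it was 14.3% to 24.5%.

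The largest rise was in the IFE basal-like cluster 1. Its 572 control cells gave 260 UMIs and its 346 induced cells gave 334, at 27.2 and 55.5 CPM, which is a log2 ratio of 1.03 (interval 0.79 to 1.27). In that cluster 7.60% of 9860 tested genes were higher by at least 1.5-fold, and 97.5% of genes had a lower ratio than the host transcript. The share of thinned cells with a UMI moved less, from 11.2% to 14.4%, a difference of 3.20 percentage points whose interval held 0 (-1.38 to 8.06). Cells with 10 or more host UMIs numbered 0 of 572 in the control and 7 of 346 in the induced library, where they held 34.1% of the cluster's host UMIs, and 3 of the 7 were among the highest doublet scores, as were 8 of all 346. Without the highest-scoring doublets the log2 ratio was 0.80.

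By summed UMIs, the rise lay mainly in 1 part of cluster 1. At a higher cluster resolution, cluster 1 was mostly divided between 2 clusters. In the part led by Nppb, Ccl20, Chac1 and Areg, which included stress and signalling genes, the level was 25.3 CPM in 251 control cells and 76.5 CPM in 157 induced cells (log2 ratio 1.596, interval 1.27 to 1.93). In the part led by Fosb, Fbxo32, Pou3f1 and Krt24 it was 29.1 CPM in 319 control cells and 35.1 CPM in 188 induced cells (log2 ratio 0.27, interval -0.11 to 0.64). The control levels of both parts were alike, and the induced levels were not. The 7 induced cells with 10 or more host UMIs were not divided by part, so how much of this difference they carry was not tested.

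Upper bulge-like cluster 5 also had more of the host transcript in the induced library. There 362 UMIs in 243 control cells and 556 UMIs in 224 induced cells gave 124 and 191 CPM, a log2 ratio of 0.63 (0.43 to 0.82), where 7.82% of genes were higher by the same fold. The thinned share was 28.4% and 41.4%, a difference of 13.0 points (3.93 to 21.8). In upper bulge-like cells set by marker UMIs in place of clusters, the log2 ratio was 0.06. Of those marker-set cells, 83.9% in the control and 86.5% in the induced library lay in clusters 5 and 12, which moved in opposite directions. In the sebaceous gland-like cluster 21, 46 and 134 UMIs gave a log2 ratio of 0.54 (0.05 to 1.06), below the 1.5-fold call, where 12.0% of genes were higher by that fold. It was 1.48 without the 5 deepest cells of each library and 2.12 after thinning. In sebaceous gland-like cells set by marker UMIs it was -0.56, so its direction depends on how these cells are set, and most of those marker-set cells lay in cluster 13 (67 of 95 in the control and 79 of 127 in the induced library).

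Inner bulge-like cells, which had the highest level, had less of the transcript in the induced library. The fall from 578 to 378 CPM was a log2 ratio of -0.61 (-0.75 to -0.48), where 5.98% of genes were lower by at least 1.5-fold and 5.31% had a lower ratio. The thinned share was 21.3 percentage points lower (interval -29.2 to -12.5). Cluster 3 held 169 control and 381 induced cells, and cells given the inner bulge name by marker UMIs alone went the other way, with a log2 ratio of 0.30. Only 21.3% of those 136 control cells lay in cluster 3, against 51.3% of the 193 induced cells. Those in cluster 3 had 723 CPM in the control and 439 CPM in the induced library, and those outside it had 221 and 296 CPM, so the fall holds for cluster 3 and its direction depends on how inner bulge cells are set.

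Both HF-SC-like clusters were lower as well. In cluster 2 the log2 ratio was -0.70 (-0.90 to -0.50), where 7.39% of genes were lower by at least 1.5-fold, and the thinned share fell from 45.9% to 29.2%, a difference of -16.7 points (-24.5 to -8.71). In the 110 control and 90 induced cells with under 5% mitochondrial UMIs the log2 ratio was -0.49 (-0.83 to -0.15), which no longer passed 1.5-fold. In cluster 19, 82 and 86 UMIs gave a log2 ratio of -1.07 (-1.52 to -0.62), where 10.2% of genes were called lower. Only 1 control and 2 induced cells of cluster 19 had under 5% mitochondrial UMIs, too few for that limit. At resolutions 0.4 and 1.6 no cluster overlapped it enough to be compared. The thinned share there was 66.7% of 24 cells and 49.1% of 55 cells, a difference whose interval held 0 (-40.0 to 8.41). HF-SC-like cells set by marker UMIs that lay in clusters 2 and 19 had 188 CPM in the control and 137 CPM in the induced library.

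In cluster 13, 962 UMIs in 130 control cells and 576 UMIs in 111 induced cells gave a log2 ratio of -0.64 (-0.79 to -0.49), where 11.0% of genes were called lower. The thinned share fell by 18.3 points, from 68.3% to 50%. In its 38 control and 21 induced cells with under 5% mitochondrial UMIs the log2 ratio was 0.09 (-0.23 to 0.40), whereas the thinned share was still lower by a difference of -13.3 points. The part of RNA quality in it was not tested. In cluster 14, 102 and 66 UMIs gave a log2 ratio of -0.61 (-1.08 to -0.15), where 8.07% of genes were called lower, and its 23 control and 32 induced cells with under 5% mitochondrial UMIs gave -0.15. Cluster 12 was lower by less than 1.5-fold (-0.48, interval -0.74 to -0.22), where 9.54% of genes were past that fold. So was cluster 11 (-0.55, interval -1.08 to -0.03), where 7.81% of genes were past it.

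In 7 clusters the counting interval of the log2 ratio held 0. In cluster 0, the largest, it was 0.03 (-0.13 to 0.18), and in cluster 10 it was -0.02 (-0.31 to 0.26). In the 41 control and 26 induced cells of cluster 10 with under 5% mitochondrial UMIs it was 1.08 (0.40 to 1.79). In hair germ-like cells, with 47 and 109 UMIs, it was -0.22 (-0.73 to 0.31). The thinned share there went the other way, from 23.7% to 37.0%, and without the 5 deepest cells of each library the log2 ratio was 0.67, so no direction is read for these cells. In upper follicle-like cells it was -0.12 (-0.42 to 0.18), in cycling-like cells -0.29 (-0.60 to 0.02), in IFE suprabasal-like cells 0.36 (-0.24 to 0.96) and in cluster 6 -0.12 (-0.91 to 0.66).

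The genes whose levels were most like that of 4631405K08Rik were described over the 23 clusters with at least 20 cells in each library. The measure was Pearson's r of log2(CPM + 1), the lower of the libraries' values, among 10801 genes. The 10 nearest were Galnt18, Trp63, Fxyd3, Pawr, Fzd6, Golim4, Barx2, Scaper, Fhdc1 and Grhl2, with r from 0.84 down to 0.80. These clusters share libraries and differ in depth, and those outside the epithelium all had little of the host transcript. Over the 17 epithelial clusters alone the 5 nearest were Rabep1 (0.88), Golim4 (0.84), S100a1 (0.83), Capns1 (0.80) and Nedd4 (0.79), and the top 10 of both rankings shared 1 gene. A ranking over all clusters by Spearman's rho shared 2 of the 10 genes with the main one.

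Trp63, the regulator known for this locus, matched the host transcript between epithelium and the rest more than within the epithelium. It had 266 CPM in the control and 240.3 CPM in the induced library over epithelial clusters, against 20.003 and 17.1 CPM outside. Within the epithelium r was 0.53 in the control and 0.45 in the induced library. Trp63 was high beside the host transcript in cluster 12 (525 and 406 CPM), cluster 19 (432 and 445 CPM) and cluster 13 (347 and 302 CPM). Both were lowest in cluster 6 in each library, where Trp63 had 77.6 and 81.8 CPM. Trp63 was also high in cluster 0 (374 and 371 CPM), beside a host level of 114 and 116 CPM. Cluster 11 had 341 and 288 CPM of Trp63 beside only 48.0 and 32.8 CPM of the host transcript. Inner bulge-like cells departed the other way, with the highest host level but only 132 and 118 CPM of Trp63. The ratios between the libraries were alike in some clusters and not in others. In cluster 1 the log2 ratio of Trp63 was 0.05 (-0.04 to 0.14) beside 1.03 for the host transcript, and in cluster 2 it was 0.04 (-0.09 to 0.18) beside -0.70. In clusters 11, 12, 13 and 14, where the host transcript was lower, Trp63 was lower too, by smaller log2 ratios of -0.24, -0.37, -0.20 and -0.36 with intervals below 0. The host transcript was also lower in clusters 3 and 19, where Trp63 had -0.17 (-0.44 to 0.11) and 0.04 (-0.32 to 0.41). In clusters 4 and 15 the host interval held 0 but Trp63 was lower, at -0.40 and -0.31 with intervals below 0. In cluster 21 Trp63 was lower (-0.52, interval -0.91 to -0.12) and the host transcript was higher.

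**Figure D5:**
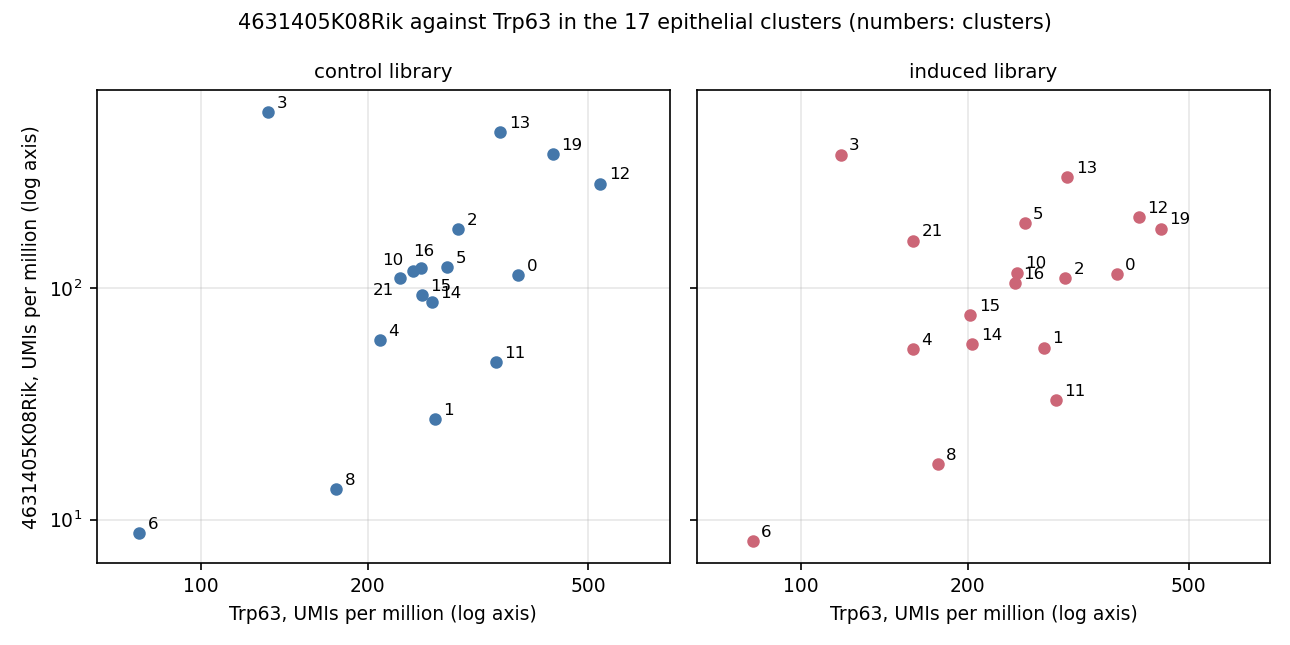
Level of 4631405K08Rik against that of Trp63, both in CPM on log axes, for the 17 epithelial clusters in the control and induced libraries, with points numbered by cluster. Cluster 6 is low in both genes, clusters 12, 13 and 19 are high in both, and cluster 3 has the highest host level with 132 and 118 CPM of Trp63. Clusters 0 and 11 are high in Trp63 (374 and 371 CPM, 341 and 288 CPM) without a high host level.

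The other genes around these roles were read over the epithelial clusters, where 4.03% of genes were lower and 10.1% higher by at least 1.5-fold and the median log2 ratio was 0.05. Of 18 epithelial transcription factors, 0 were lower and 2 higher, with a median of 0.10. These were Elf3, from 10.3 to 19.9 CPM (log2 ratio 0.96), and Lhx2, a factor of hair follicle stem cells, from 35.7 to 64.9 CPM (0.86). Such sums mix clusters in different proportions. Within clusters the log2 ratio of Lhx2 was -0.53 (-0.84 to -0.21) in cluster 19, where its level was highest. It was 0.35 in cluster 2, 0.34 in cluster 3 and 1.05 in cluster 5. Of the 12 genes that process or use microRNAs, among them Drosha, Dicer1 and Ago2, 0 passed the fold in either direction, with a median of 0.05. Of 16 other microRNA host transcripts, 10 were found and 7 had enough UMIs, and 0 passed the fold, with a median of 0.14. Of the genes within 500 kb, Lamb3, a chain of the basement membrane protein laminin 332 at 163 kb, had 136 and 155 CPM (log2 ratio 0.19). Diexf had 22.8 and 16.9 CPM (-0.44) and A130010J15Rik had 15.0 and 12.7 CPM (-0.25), so these also stayed within the fold.

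Of 12 listed targets of miR-205, 6 of them named by the study and so no independent choice, 1 was lower and 0 were higher by 1.5-fold over the epithelial clusters, and their median was -0.13. The lower one was Inpp4b, a phosphatase that restrains PI3K signalling, from 23.7 to 13.6 CPM (log2 ratio -0.80). In the clusters where the host transcript passed 1.5-fold upward, the median of the targets with enough UMIs was -0.23 in cluster 1 and -0.01 in cluster 5, where all genes had medians of 0.02 and 0.01. Where it passed downward, the targets' median was -0.29 in cluster 2, -0.08 in cluster 3, -0.33 in cluster 13, 0.02 in cluster 14 and 0.06 in cluster 19. The medians of all genes in those clusters were between -0.03 and 0.05. Zeb1 and Zeb2, mesenchymal regulators known as miR-205 targets, were at 0.552 and 0.934 CPM in the control epithelium and at 196 and 428 CPM outside it, the opposite distribution to that of the host transcript.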

How the data were processed

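The authors made the UMI counts of each gene in each barcode with Cell Ranger 3.0.1 on build mm10, per the file headers and the submitters' processing notes, and deposited raw counts without normalization. Cells with over 200 and under 5000 genes and under 10% mitochondrial UMIs were kept, as the study states. Scrublet (scanpy 1.11.5) marked 4 control and 5 induced barcodes by its automatic threshold, which was not used, and the 165 and 145 highest-scoring barcodes were left out only as an alternative. Seurat 5.3.0 in R 4.3.3 integrated the libraries (2000 variable genes, 30 dimensions, Louvain resolution 0.8) with the host transcript and 62 genes in all withheld from the variable genes. A cluster was named where at least 3 markers with at least 20 UMIs were raised 2-fold, at least 1 of them was among its top 10 genes, and no other class had more there or as large a share raised. Clusters with Vim under 1000 CPM took no name from outside the epithelium. This rule was set after values were seen.

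UMIs were summed per cluster and library and scaled to CPM. Intervals at 95% are exact (Poisson, Clopper-Pearson, and conditional binomial for ratios) and cover counting error only. Beside a share of 0 stands the upper limit set by 3 counts. Genes with at least 20 UMIs were tested for the share past 1.5-fold with a pseudocount of 0.5 UMIs, and likeness used genes with at least 200 UMIs. Named genes were the host transcript, Krt14, Krt5, Trp63, the genes most like it, those within 500 kb, and list genes on which a count turns. Genes within 500 kb were taken from RefSeq, and 10 of them matched a feature by symbol or synonym, of which 1 is not reported here. The code for intervals and thinning was checked on simulated Poisson counts. In the data the host transcript varied more among cells of nearly every cluster. Intervals of levels and ratios therefore do not cover the sampling of cells. The gene and the lists were chosen with earlier results of these data known. Alternatives covered mitochondrial share, doublets, scaling, thinning to 2000 UMIs, cluster resolution, cells set by marker UMIs, and leaving out the 5 deepest cells of each library.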

Additional observations from a re-analysis of the deposited data

Results flagged for a closer look

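The ratio of 4631405K08Rik between the libraries pointed in opposite directions in different clusters, with counting intervals that left out 0. The log2 ratio, induced over control, was 1.03 in cluster 1 (basal interfollicular), 0.63 in cluster 5 (upper bulge-like) and 0.54 in cluster 21 (sebaceous gland-like), which turned to -0.56 in sebaceous gland-like cells set by marker UMIs. It was -0.70 in cluster 2 and -1.07 in cluster 19 (both HF-SC-like), -0.61 in cluster 3 (inner bulge-like, but 0.30 with cells set by marker UMIs), -0.64 in cluster 13 (but 0.089 at under 5% mitochondrial UMIs), -0.61 in cluster 14, -0.55 in cluster 11 and -0.48 in cluster 12 (upper bulge-like). With 1 library per group the difference between clusters was not tested against a spread between mice.

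Barcodes that the filter left out also held the transcript, with 965 UMIs in 609 control barcodes and 915 UMIs in 636 induced barcodes, at 197 and 209 CPM. Their median mitochondrial share was 16.1% and 18.2%, and no comparison above uses them.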

How the results depend on the processing

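No paired analysis was possible because each group had 1 sample. Over 55 values and 367 alternatives, 309 were classed as the same, 51 as moved and 7 as reversed. For the 192 log2 ratios, the 134 share differences and the CPM levels, moved means beyond the counting interval. Positions, percents of genes past the fold and counts of shared genes have no such interval. The percent of genes past the fold moved with the limit on counts in each cluster called past 1.5-fold, as given above. The clusters from another random start were chosen after seeing the data. For each moved or reversed value below the cause was not tested, except that cells set by marker UMIs are other cells, as given above.

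Log2 ratios that reversed were those of cells set by marker UMIs in place of cluster 3 (0.30, and 0.42 without the cell filter, with share differences of 7.00 and 7.28 points) and cluster 21 (-0.56 and -0.54), and that of cluster 13 at under 5% mitochondrial UMIs (0.089). Under that mitochondrial limit the log2 ratio also moved to 0.23 over all cells, 0.28 over the epithelium, -0.49 in cluster 2, -0.82 in cluster 3, 1.08 in cluster 10, -0.15 in cluster 14, 0.17 in cluster 15 and -0.88 in cluster 16. The level of cluster 3 moved to 505 CPM in the control and 286 CPM in the induced library, where it stood at position 2, and cluster 6 moved to position 15 in the control. Over all cells the log2 ratio was -0.061 with median-of-ratios scaling, -0.049 as a mean of CPM over cells and -0.054 after thinning. Thinning moved it to -0.92 in cluster 2, -0.93 in cluster 6, -0.85 in cluster 13 and 2.12 in cluster 21. Without the 5 deepest cells it was -0.78 in cluster 15, 0.67 in cluster 16 and 1.48 in cluster 21. With cells set by marker UMIs, kept and then unfiltered, it was 0.056 and 0.071 for cluster 5 and -0.67 and -0.35 for cluster 8, and the share difference for cluster 21 was -11.2 and -8.46 points. At resolution 1.6 the log2 ratio of cluster 1 was 0.24 with a share difference of -1.79 points, the induced level of cluster 3 was 425 CPM, and the share difference of cluster 0 was -3.52 points (-3.14 from another random start).

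Low counts widen the intervals of clusters 6, 8, 11, 14, 16, 19 and 21, and the induced and control mice cannot be told apart from the treatment.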
